A study of Mus musculus with 5 samples.

Results

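The genes described are 33 that carry glucose through glycolysis to lactate or to the door of the mitochondrion: 2 glucose transporters, the enzymes of the pathway with their isoforms, the bifunctional Pfkfb enzymes, the lactate dehydrogenases and lactate carriers, and the kinases that gate pyruvate dehydrogenase. They were taken by symbol from a table of 24594 genes in which all 33 were present. The table comes from mouse retina, 3 libraries labelled Zfp292-OE and 2 control libraries. Per the labels, CAG-Zfp292 or CAG-GFP plasmid was electroporated in vivo into newborn (P0) pups, and the retinas were collected after 4 days. They were made into single-cell suspensions, from which cells with GFP, called RPC in the labels, were sorted. CAG is a promoter active in most cell types, so neither plasmid is restricted to one retinal cell type. Both groups share the electroporation, the day of collection and the sort, and each library was made from 1.3 µg of total RNA. The sources used here do not give strain, sex or the number of animals. The labels do not say whether each library is a separate animal, and the p-values therefore measure the spread among these 5 libraries, which may be technical.

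Glycolysis splits glucose into pyruvate in the cytosol, and lactate dehydrogenase turns pyruvate into lactate, which leaves the cell through monocarboxylate carriers. Many steps have several isoforms, some found in dividing or unspecialised cells and others in mature neurons or muscle. The retina is known for making lactate even when oxygen is present, both in progenitors and in mature photoreceptors, and Hk2 and Ldha are the forms usually named for photoreceptors.

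Reads assigned to genes numbered 114197740, 135442444 and 117441152 in the libraries labelled Zfp292-OE, against 103096224 and 137683716 in the control libraries. Normalised read counts of Zfp292 itself were 14631, 13197 and 15534 in the libraries labelled Zfp292-OE, against 13288 and 14756 in control (log2 fold change 0.043, SE 0.14, adjusted p = 0.867), so the groups are those of the labels, with no detectable rise in Zfp292 itself. All 12 proliferation genes listed were higher and all 15 rod genes were lower. Summed proliferation values were 312465, 368995 and 196463 in the libraries labelled Zfp292-OE, against 57381 and 51504 in control, and summed rod values were 368197, 372002 and 316552 in the libraries labelled Zfp292-OE, against 1225684 and 1038711 in control. Both kinds of gene were read in all 5 libraries, so what the labels call RPC holds transcripts of both lists. Whether these come from separate cells was not tested. These sums separate the groups, as do 24 of the 33 genes described below. In bulk RNA, fewer cells of a type and less RNA per cell cannot be told apart, and the part of these shifts in the glycolysis values was not tested.

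Among the isoforms of 1 step, enolase, changes ran in opposite directions. In the libraries labelled Zfp292-OE, Eno2, Eno3, Aldoc, Slc2a3, Hk1, Pfkp and Pfkm fell, while Pgk1, Eno1, Ldhb, Slc16a1 and Pdk3 rose. With limma across 16316 tested genes and an adjusted p below 0.05, 12 of the 33 genes (36.4%) passed, against 17.4% of all tested genes. Of the 33, 5 were higher, beside 10% of all tested genes, and 7 were lower, beside 7.38%. Among genes whose mean value reached 1000, where small changes are easier to call, 12 of 28 (42.9%) passed against 24.6%. The groups did not overlap for 24 of the 33 (72.7%), 12 in each direction, against 49.9% of all tested genes. The 4 genes that passed and differed by more than 2-fold were all lower: Eno2, Eno3, Aldoc and Slc2a3. The median log2 fold change was -0.054 over the 33 and -0.058 over all tested genes, and the median absolute log2 fold change was 0.55 over the 33 and 0.50 over all. These calls rest on both control libraries: with either one left out, 0 of the 33 passed (adjusted p 0.0547 to 0.263 for the 12), 14 had an unadjusted p below 0.05 in limma, and 1 gene in the whole table passed. All 12 kept their direction.

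**Figure D1:**
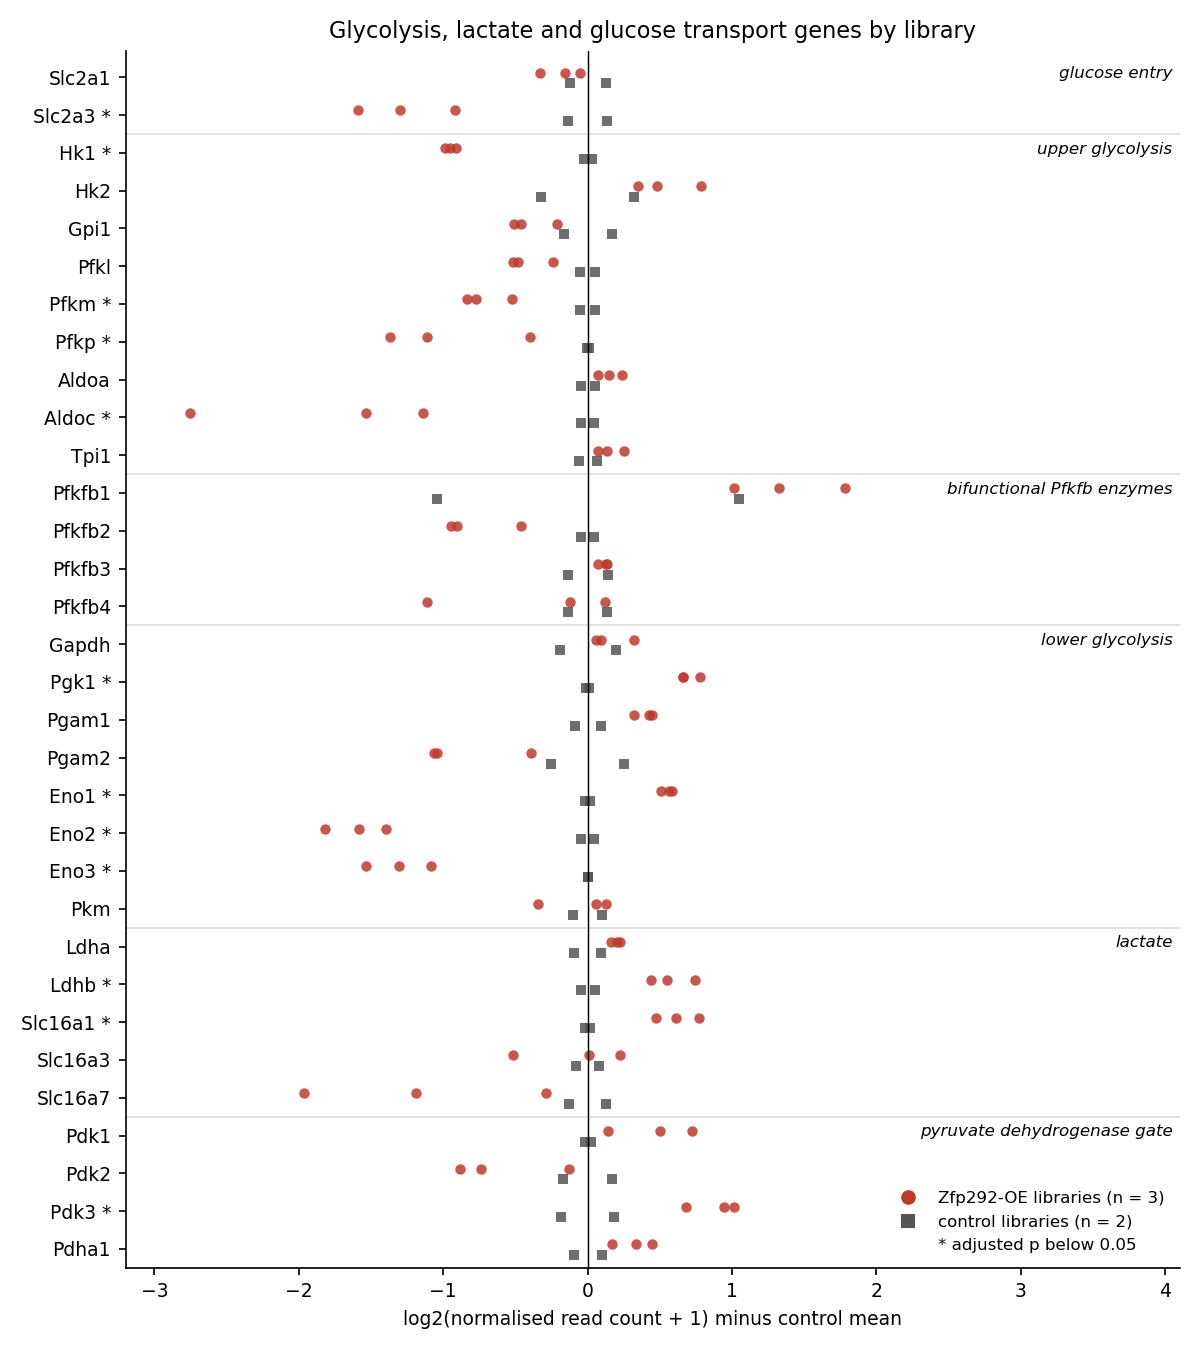
Values of 32 genes in each library as log2(normalised read count + 1) minus the control mean (x axis), one gene to a line and grouped by role. Circles are the 3 libraries labelled Zfp292-OE, squares the 2 control libraries, and an asterisk marks an adjusted p below 0.05; Pdk4, near 0 reads, is left out. Aldoc, Slc16a7 and Eno2 reach farthest to the left, and Pgk1 and Pdk3 lie to the right, Pgk1 with the narrower spread.

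**Figure D2:**
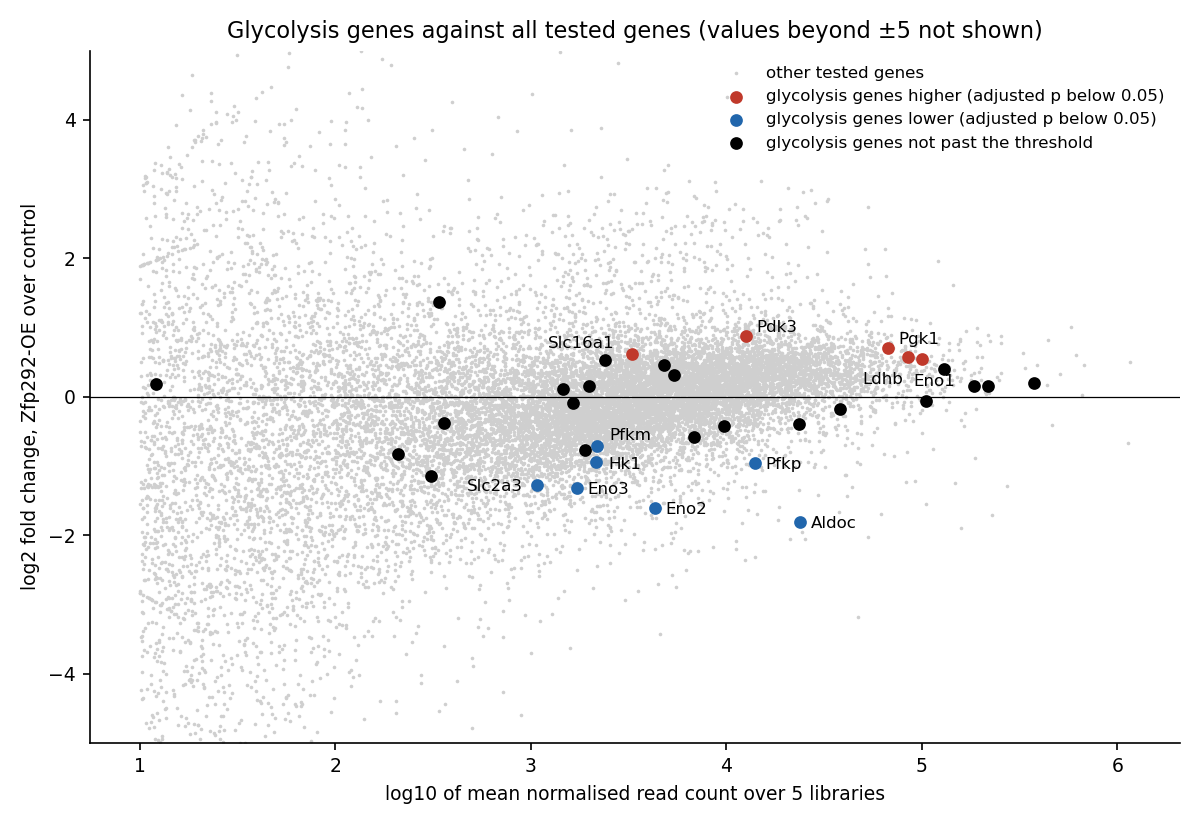
Log2 fold change, Zfp292-OE over control (y axis), against log10 of the mean normalised read count over 5 libraries (x axis) for all tested genes, with the 33 genes as large points. The 5 higher genes lie between 0.55 and 0.88, and the 7 lower genes between -0.71 and -1.81.

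Promoter windows of 4 genes are shown because they hold the short motifs discussed with the results, 2 from abundant enzymes with hypoxia-type motifs and 2 from genes that fell. They are RefSeq windows on GRCm38.p6, 250 bases before to 50 after an annotated start, written 5′ to 3′ on the gene's strand. Capitals mark ACGTG on either strand (CACGT on the printed strand), the core of hypoxia response elements and, inside CACGTG, of E-boxes, and TAATCC on either strand, a core bound by Crx and Otx factors. Pgk1 (chrX:106186850-106187149, + strand), Ldha (chr7:46845554-46845853, + strand), Aldoc (chr11:78322823-78323122, + strand) and Pfkp (chr13:6648722-6649021, - strand) read:
Pgk1: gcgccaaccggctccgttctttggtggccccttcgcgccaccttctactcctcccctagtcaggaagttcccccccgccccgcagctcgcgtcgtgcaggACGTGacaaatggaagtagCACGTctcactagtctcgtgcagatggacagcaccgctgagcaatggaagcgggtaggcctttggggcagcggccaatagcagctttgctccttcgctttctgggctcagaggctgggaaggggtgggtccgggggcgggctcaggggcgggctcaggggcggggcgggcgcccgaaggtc
Ldha: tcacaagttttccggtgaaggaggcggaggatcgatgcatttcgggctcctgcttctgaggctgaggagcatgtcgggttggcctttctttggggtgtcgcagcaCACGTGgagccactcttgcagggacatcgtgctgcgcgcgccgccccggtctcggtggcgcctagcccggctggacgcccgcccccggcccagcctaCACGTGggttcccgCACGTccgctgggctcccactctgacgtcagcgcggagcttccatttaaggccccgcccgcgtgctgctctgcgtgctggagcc
Aldoc: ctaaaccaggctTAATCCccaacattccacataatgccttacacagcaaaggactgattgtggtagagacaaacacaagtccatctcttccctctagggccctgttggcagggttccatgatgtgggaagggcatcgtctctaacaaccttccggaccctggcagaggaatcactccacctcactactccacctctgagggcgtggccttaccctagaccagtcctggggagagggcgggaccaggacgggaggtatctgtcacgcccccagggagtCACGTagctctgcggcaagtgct
Pfkp: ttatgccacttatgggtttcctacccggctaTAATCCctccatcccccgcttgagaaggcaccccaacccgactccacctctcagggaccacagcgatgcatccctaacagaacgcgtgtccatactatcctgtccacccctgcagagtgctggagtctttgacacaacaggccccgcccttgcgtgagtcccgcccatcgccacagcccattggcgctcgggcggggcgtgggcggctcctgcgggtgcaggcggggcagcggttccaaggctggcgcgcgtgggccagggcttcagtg

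Windows were found for 31 of the 33 genes (50 windows, since some genes have several starts), all but Slc16a7 and Slc2a3. ACGTG was present in 17 of 31 genes (54.8%), against 21.8% of 27025 genes with a window, and CACGTG, counted within it, in 6 of 31 (19.4%) against 8.09%. The 31 genes had more windows per gene (1.61 against 1.22) and a higher median GC content (59.7% against 52.7%). Pgk1 has the motif at -150 and -131 (the start being 0), and Ldha has it at -145, -144, -48, -47 and -34, its 2 CACGTG sites being counted once on each strand. By outcome, ACGTG was in 3 of 5 genes that rose, 3 of 6 that fell and 11 of 20 that did not pass. TAATCC was in 5 of 31 genes (16.1%) against 8.14% of all genes. It was in 3 of 6 genes that fell (Pfkm, Pfkp and Aldoc), in 0 of 5 that rose, and in 2 of 20 that did not pass (Pfkfb4 and the second start of Ldha). A gene counted if any of its windows matched, and the 6 genes that fell had 11 windows. The windows of Eno1, Eno2 and Eno3 hold neither motif. A match is a string of letters in the window and says nothing of binding.

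Glucose enters through Slc2a1 (GLUT1), the main carrier of most cells and of the blood-retina barrier, and Slc2a3 (GLUT3), a high-affinity carrier typical of neurons. For Slc2a3 (chromosome 6, 122727809 to 122802363 on GRCm38) the normalised read counts were 669, 546 and 871 in the libraries labelled Zfp292-OE, against 1504 and 1809 in control. All 3 lay below both control libraries, with library 3 nearest. The log2 fold change was -1.27 (SE 0.30, adjusted p = 0.0200), a level 2.41-fold lower, and the adjusted p was 0.0513 without Zfp292-OE library 1. Slc2a1 had 32555, 36621 and 39405 in the libraries labelled Zfp292-OE, against 44579 and 37544 in control, overlapping groups with a log2 fold change of -0.18 (adjusted p = 0.422). Per kb of exon Slc2a1 was the larger of the pair by far, making up 99.1% ± 0.180 of their summed level in the libraries labelled Zfp292-OE and 98.1% ± 0.475 in control (SD, n = 3 and n = 2).

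Hexokinase traps glucose as glucose-phosphate. Hk1, the housekeeping form (chromosome 10, 62268855 to 62379920), had 1561, 1606 and 1526 normalised reads in the libraries labelled Zfp292-OE, against 2964 and 3077 in control. The 3 values lie within a narrow band well below both controls, and the log2 fold change was -0.95 (SE 0.20, adjusted p = 0.0130, fold 95% interval 0.378 to 0.710). Hk2, the inducible form of dividing cells that photoreceptors also use, had 2577, 2356 and 3188 in the libraries labelled Zfp292-OE, against 1480.0 and 2316 in control. All 3 were above both controls, but library 2 exceeded control library 2 only narrowly, and the log2 fold change of 0.54 did not pass (adjusted p = 0.172). Per kb of exon, Hk2 made up 71.0% ± 3.66 of the summed Hk1 and Hk2 level in the libraries labelled Zfp292-OE, against 46.7% ± 7.20 in control (SD, n = 3 and n = 2). Hk1 is overlapped by Hk1os on the opposite strand, which had a log2 fold change of 0.13, and whether counting used strand is not given.

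Phosphofructokinase commits sugar to glycolysis, and its 3 subunit genes, the liver type Pfkl, the muscle type Pfkm and the platelet type Pfkp, all had lower means in the libraries labelled Zfp292-OE. Pfkp (chromosome 13, 6579874 to 6649060) had 8988, 7503 and 14699 in these libraries, against 19323 and 19478 in control. Every value was below both controls, yet library 3 was nearly 2-fold above library 2. The log2 fold change was -0.96 (SE 0.25, adjusted p = 0.0261), with an adjusted p of 0.0818 without Zfp292-OE library 1 and 0.0555 without library 2. Pfkm (chromosome 15, 98092589 to 98132447) had 1649.7, 1584 and 1959 in the libraries labelled Zfp292-OE, against 2722 and 2923 in control. Its groups were well apart, with a log2 fold change of -0.71 (SE 0.21, adjusted p = 0.0460) that lay close to the threshold and missed it without Zfp292-OE library 1 (0.108) or 2 (0.117), with a replicate block (0.0690), under quantile normalization (0.0807) and with no filter (0.0507). Pfkl had 8124, 7937 and 9613 in the libraries labelled Zfp292-OE, against 11812 and 10959.8 in control, all lower without overlap but not past the threshold (log2 fold change -0.42, adjusted p = 0.0921). Exons of Pfkp overlap Pitrm1 on the opposite strand, at a log2 fold change of 0.56, and those of Pfkm overlap Senp1, at 0.46. Opposite-strand overlaps of the same kind exist for Pfkfb1 (Apex2), Pfkfb2 (Yod1), Tpi1 (Spsb2), Gapdh (Iffo1) and Pdha1 (Map3k15).

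The next steps held the largest fall in absolute reads. Aldolase C (Aldoc, chromosome 11, 78323073 to 78327781), the brain and retina form of the enzyme that cleaves fructose bisphosphate, had 13961, 5999 and 18345 in the libraries labelled Zfp292-OE, against 39240.2 and 41718 in control. All 3 were far below the controls and also far from each other, with library 2 lowest. The log2 fold change was -1.81 (SE 0.37, adjusted p = 0.0101), 3.51-fold lower. The general form Aldoa had 227105, 215398 and 241383 in the libraries labelled Zfp292-OE, against 212029 and 198261 in control, a log2 fold change of 0.15 that did not pass (adjusted p = 0.486). Aldoc therefore made up 5.85% ± 2.51 of the per-kb aldolase level in the libraries labelled Zfp292-OE, against 18.3% ± 1.36 in control (SD, n = 3 and n = 2). Gpi1, which converts glucose-phosphate to fructose-phosphate, had 19136, 19767 and 23550.2 in the libraries labelled Zfp292-OE, against 30581 and 24305 in control (log2 fold change -0.40, adjusted p = 0.116). Tpi1, which interconverts the triose phosphates, had 181014, 188655 and 204334 in the libraries labelled Zfp292-OE, against 179764 and 164668 in control (0.15, adjusted p = 0.485). Of these 9 upper glycolysis genes 4 fell and 0 rose, beside 17.4% of all tested genes that passed in either direction.

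The 4 Pfkfb genes encode bifunctional enzymes that make and remove the allosteric activator of phosphofructokinase, and 0 of 4 passed in limma, with 1 at an unadjusted p below 0.05 and 1, Pfkfb2, called by both edgeR and DESeq2. Pfkfb2 had 1805, 1291 and 1331 normalised reads in the libraries labelled Zfp292-OE, against 2412 and 2575 in control, without overlap (log2 fold change -0.77, adjusted p = 0.0513). Pfkfb3, the form induced in dividing and hypoxic cells, had 1519, 1512 and 1454 in the libraries labelled Zfp292-OE, against 1259.9 and 1526 in control, overlapping groups (0.11, adjusted p = 0.783). Pfkfb4 had 369.6, 185 and 436 in the libraries labelled Zfp292-OE, against 442 and 366 in control, and overlapped too (log2 fold change -0.37, adjusted p = 0.626). Pfkfb1, a liver and muscle form, had 406, 558 and 326 in the libraries labelled Zfp292-OE, against 335 and 77.8 in control, with the 2 controls so far apart that its log2 fold change of 1.37 had an SE of 0.62.

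Lower glycolysis recovers ATP, and here genes moved both ways, 2 higher and 2 lower of 8. Of all tested genes 17.4% passed in either direction. Pgk1, which makes the first ATP of the pathway (chromosome X, 106187100 to 106203699), had 83883, 77387 and 77346 in the libraries labelled Zfp292-OE, against 48556 and 49216 in control. The groups were tight and far apart, with a log2 fold change of 0.70 (SE 0.13, adjusted p = 0.00629), 1.63-fold higher, and an adjusted p of 0.0710 under quantile normalization. Pgam1, the mutase of the next step, had 148722, 136439 and 146182 in the libraries labelled Zfp292-OE, against 116165 and 102360.3 in control, all higher without overlap but not past the threshold (0.40, adjusted p = 0.0727). Its muscle form Pgam2 had 135, 212 and 133 in the libraries labelled Zfp292-OE, against 332 and 233 in control (-0.83, adjusted p = 0.301). Pkm, pyruvate kinase, had 84627, 111401 and 116895 in the libraries labelled Zfp292-OE, against 114912 and 100098 in control, with a log2 fold change of -0.054 (adjusted p = 0.854, fold 95% interval 0.742 to 1.25). Its muscle and embryonic splice forms, whose balance is known to differ between dividing and mature cells, are counted as 1 gene and cannot be told apart in this table.

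Gapdh had only 1967, 2311 and 1922 in the libraries labelled Zfp292-OE, against 1617 and 2115 in control, although it is an abundant enzyme in most cells. Its transcript matches 177 other annotated genes at 90% identity or more over at least 300 bases, so its level is uncertain. The same kind of match exists for 13 of the 33 genes, among them Ldha (13 genes), Pkm (8), Aldoa (6), Eno1 (6), Pgk1 (4), Pgam1 (3) and Tpi1 (2), and how reads shared by copies were counted is not given.

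The 3 enolase genes showed the widest contrast. Eno2, the neuron-specific form (chromosome 6, 124760053 to 124769673), had 2029.6, 2385 and 2713 in the libraries labelled Zfp292-OE, against 7372 and 6945 in control. Each was well under the controls, giving a log2 fold change of -1.60 (SE 0.19, adjusted p = 0.000828), 3.03-fold lower, the smallest p of the 33. Eno3, the muscle form (chromosome 11, 70653125 to 70662513), had 915, 1251 and 1073 in the libraries labelled Zfp292-OE, against 2660.3 and 2657 in control, again without overlap. Its log2 fold change was -1.31 (SE 0.24, adjusted p = 0.00641). Eno1, the general form (chromosome 4, 150236708 to 150248879), had 110503, 116703 and 115099 in the libraries labelled Zfp292-OE, against 78812 and 76724 in control. It was higher in all 3, with a log2 fold change of 0.55 (SE 0.13, adjusted p = 0.0180). That call was lost without Zfp292-OE library 2 (adjusted p = 0.0739), under quantile normalization (0.173), under equal library totals (0.0731) and with a replicate block (0.0573).

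Most enolase reads sit under a near-identical copy of Eno1. Eno1b, a copy on another chromosome, had 673381, 732522 and 738319 in the libraries labelled Zfp292-OE, against 488522 and 452860.0 in control, more than any of the 33 genes. Its log2 fold change was 0.60 (adjusted p = 0.0256), close to that of Eno1, and Eno1 held 13.5% to 14.1% of the summed reads of the pair in the libraries labelled Zfp292-OE, against 13.9% and 14.5% in control. Summed, which joins reads that the counting may have split, Eno1 and Eno1b averaged 828842 ± 38992 in the libraries labelled Zfp292-OE and 548459 ± 26693 in control (SD, n = 3 and n = 2). The log2 ratio of Eno2 to this sum differed by -2.20 between the groups, against -2.15 for Eno2 to Eno1 alone. The level of Eno1 on its own is thus not comparable with that of other genes.

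Lactate genes were higher or did not pass, with 2 of 5 higher and 0 lower, beside 17.4% of all tested genes that passed in either direction. Ldhb, the subunit favoured in tissues that burn lactate (chromosome 6, 142490249 to 142507957), had 109573, 88810.1 and 95917 in the libraries labelled Zfp292-OE, against 67689 and 63186 in control. All 3 exceeded both controls, with a log2 fold change of 0.58 (SE 0.14, adjusted p = 0.0225). The adjusted p was 0.0677 without Zfp292-OE library 1, 0.0725 under equal library totals and 0.198 under quantile normalization. Ldha, the subunit favoured where lactate is made, had 398954, 386911 and 404109 in the libraries labelled Zfp292-OE, against 369448 and 324072 in control. It was higher without overlap, but the log2 fold change of 0.20 did not pass (adjusted p = 0.384, fold 95% interval 0.913 to 1.44) and was negative under equal library totals. Per kb of exon, Ldha had the highest level of the 33 genes in both groups when Eno1 is counted without its copy, at 119836 normalised reads per kb in the libraries labelled Zfp292-OE and 104761 in control. Eno1b alone had 380789 per kb in the libraries labelled Zfp292-OE and 250768 in control. Ldhb made up 34.2% ± 2.16 of the per-kb level of both subunits in the libraries labelled Zfp292-OE, against 28.5% ± 0.896 in control (SD, n = 3 and n = 2).

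Among the lactate carriers, Slc16a1 (MCT1, chromosome 3, 104638664 to 104658462) had 3427, 3771 and 4221 in the libraries labelled Zfp292-OE, against 2500.1 and 2437 in control. The groups were apart, with a log2 fold change of 0.62 (SE 0.19, adjusted p = 0.0476). Of the 12 calls it held least often: its adjusted p was 0.0721, 0.109 and 0.118 without Zfp292-OE library 1, 2 and 3, 0.0611 in edgeR, 0.0591 with TMM scaling, 0.0509 with no filter, 0.181 under equal library totals and 0.177 with a replicate block. Slc16a3 (MCT4), the exporter of highly glycolytic cells, had 1179, 1696 and 1965 in the libraries labelled Zfp292-OE, against 1781 and 1595 in control, overlapping groups (-0.095, adjusted p = 0.839). Slc16a7 (MCT2), a high-affinity carrier of neurons, had 112, 192 and 359 in the libraries labelled Zfp292-OE, against 401 and 479 in control. All 3 were lower but widely scattered, and the log2 fold change of -1.15 did not pass (adjusted p = 0.182). Per kb of exon, Slc16a1 made up 73.1% ± 3.47 of the 3 carriers in the libraries labelled Zfp292-OE, against 61.1% ± 0.913 in control (SD, n = 3 and n = 2).

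At the entry to the mitochondrion, the Pdk kinases phosphorylate and switch off pyruvate dehydrogenase. Pdk3 (chromosome X, 93764616 to 93832150), the only one of the 5 genes at this gate to pass, had 15984, 16759 and 13302 in the libraries labelled Zfp292-OE, against 9444 and 7312 in control. All 3 exceeded both controls, with a log2 fold change of 0.88 (SE 0.17, adjusted p = 0.00828), 1.84-fold higher. Pdk1, the kinase known to be induced by hypoxia, had 6414, 4294 and 5518 in the libraries labelled Zfp292-OE, against 3834 and 3948 in control, higher without overlap (0.46, adjusted p = 0.145). Pdk2 had 4561, 5029 and 7672 in the libraries labelled Zfp292-OE, against 9451 and 7486 in control. Library 3 alone lay above the lower control, and the log2 fold change of -0.59 did not pass (adjusted p = 0.110). Per kb of exon, Pdk3 was the largest Pdk in all 5 libraries and Pdk2 the next. Pdk2 made up 21.5% ± 6.68 of the 4 in the libraries labelled Zfp292-OE, against 41.5% ± 0.285 in control (SD, n = 3 and n = 2). Pdk3 made up 70.3% ± 6.97 in the libraries labelled Zfp292-OE, against 50.6% ± 1.16 in control. Pdk4, the kinase of fasting, was near 0, at 37.6, 6.58 and 0 in the libraries labelled Zfp292-OE, against 1.09 and 15.4 in control, and Pdha1, the catalytic subunit that these kinases act on, had 5266, 6371 and 5889 in the libraries labelled Zfp292-OE, against 5008 and 4374 in control (0.32, adjusted p = 0.229).

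**Figure D3:**
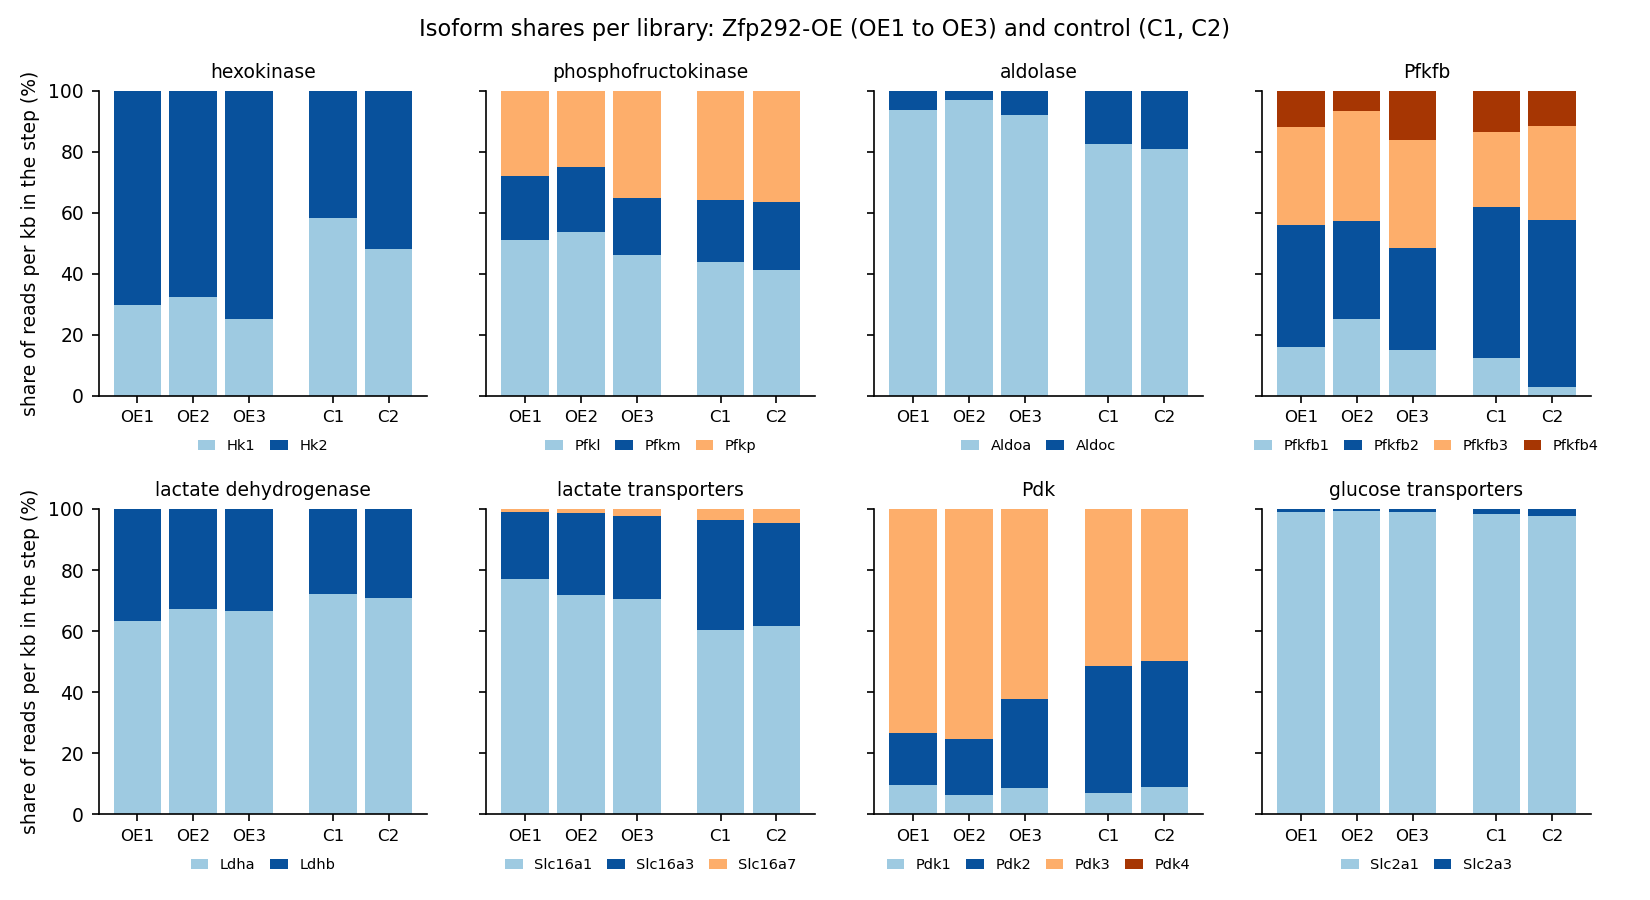
Share of each isoform in the summed level of its step, in normalised reads per kb of exon (y axis, %), in each library (x axis, OE1 to OE3 labelled Zfp292-OE, C1 and C2 control). Aldoc, Pdk2 and Hk1 take smaller shares, and Hk2, Ldhb, Slc16a1 and Pdk3 larger shares, in all 3 libraries labelled Zfp292-OE than in both control libraries; enolase is not drawn because of its copy.

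The balance of isoforms was then compared within libraries as a log2 ratio, which library scaling leaves unchanged. Of 10 pairs, all 10 had groups that did not overlap, beside 49.9% of single tested genes. The share over other gene pairs was not computed. The pairs were chosen with earlier results known, and each difference follows from the fold changes of its 2 genes given above. With 3 libraries against 2, the smallest p an exact permutation test can give is 0.1, so no pair can pass. It was reached by 9 pairs (two-sided, 0.111 after Benjamini-Hochberg adjustment over the 10), and Pfkp over Pfkl gave 0.2. The mean log2 ratio of Eno2 over Eno1 was lower by the most, at -2.15. Aldoc over Aldoa followed at -1.96, Slc16a7 over Slc16a1 at -1.77, Slc2a3 over Slc2a1 at -1.09 and Pdk2 over Pdk1 at -1.04. Pfkfb2 over Pfkfb3 differed by -0.88, Pfkp over Pfkl by -0.54 and Pfkm over Pfkl by -0.29. On the other side, Hk2 over Hk1 differed by 1.49 and Ldhb over Ldha by 0.38.

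**Figure D4:**
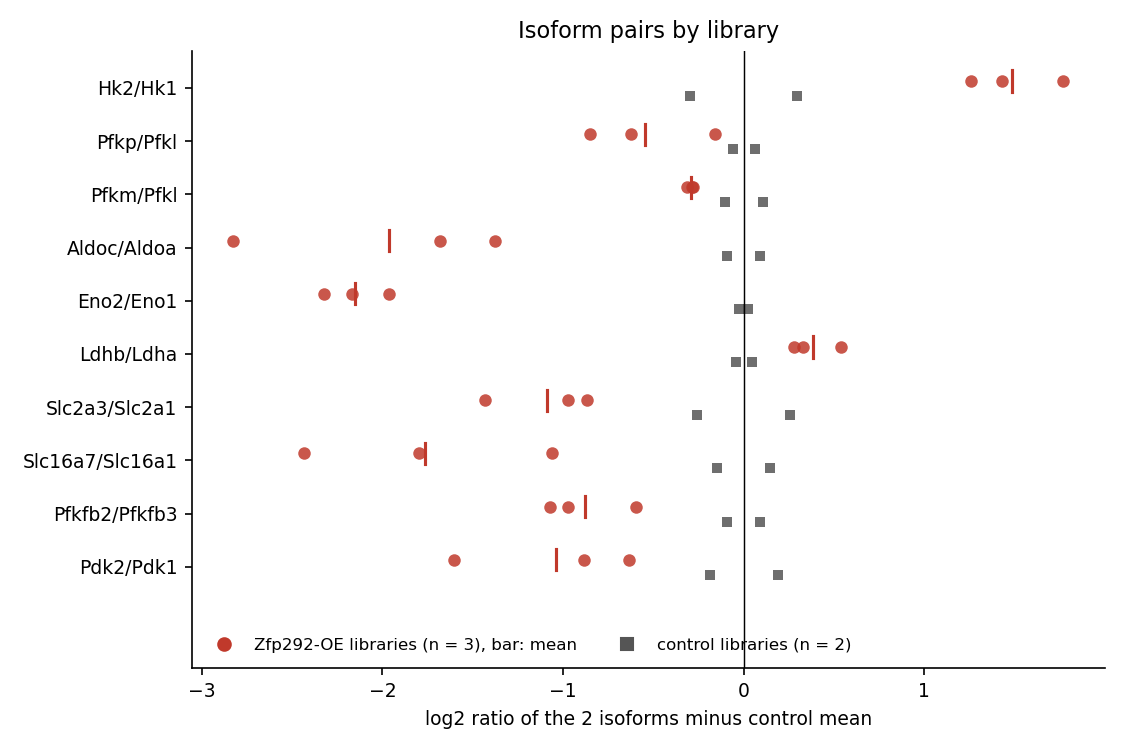
Log2 ratio of 2 isoforms in each library minus the control mean (x axis) for 10 pairs. Circles are the 3 libraries labelled Zfp292-OE with a bar at their mean, squares the 2 control libraries; Hk2 over Hk1 and Ldhb over Ldha lie to the right of both controls and the other 8 pairs to the left.

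Summed, the 33 genes had 1498638 ± 57045 normalised reads in the libraries labelled Zfp292-OE and 1328645 ± 87381 in control (SD, n = 3 and n = 2). The sum of all deposited values was also larger in the libraries labelled Zfp292-OE, and as a share of it the 33 genes took 1.14% to 1.27% in those libraries, against 1.19% and 1.24% in control, which overlap. Ldha, Aldoa, Tpi1 and Pgam1 alone held 63.7% to 64.6% of the 33 genes' reads in the libraries labelled Zfp292-OE, against 62.3% and 63.1% in control. By role, lower glycolysis without Eno1b took 0.332% to 0.375% of all values in the libraries labelled Zfp292-OE, against 0.330% and 0.321% in control. Upper glycolysis took 0.354% to 0.422% in the libraries labelled Zfp292-OE, against 0.445% and 0.441% in control. As summed normalised reads, not shares, upper glycolysis overlapped between the groups. It averaged 477840 ± 35920 in the libraries labelled Zfp292-OE and 483812 ± 22776 in control. Lower glycolysis without Eno1b did not overlap, at 447411 ± 14303 in the libraries labelled Zfp292-OE and 355388 ± 21269 in control. The libraries were unequal: of the 7 genes that fell, Zfp292-OE library 3 lay nearest to control in 5 and library 2 in 2, and library 3 had both the lowest proliferation sum and the lowest rod sum of its group.

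Genes next to the pathway were read from lists of related genes. In serine synthesis and folate use, 3 of 6 tested genes rose and 0 fell: Shmt1, which makes glycine and one-carbon units, by 2.49 on the log2 scale (adjusted p = 0.000284), Phgdh, the first enzyme of serine synthesis, by 0.89 (0.0177), and Psat1 by 0.82 (0.00431). Shmt1 had 5636, 6288 and 4644 in the libraries labelled Zfp292-OE, against 911 and 1040.5 in control. Among genes of pyruvate entry, 2 of 10 passed (20.0%, near the 17.4% of all tested genes), both higher: the mitochondrial pyruvate carrier subunit Mpc1 (0.68, adjusted p = 0.0215) and the dehydrogenase subunit Dld (0.60, 0.0424). In the pentose phosphate pathway 0 of 7 passed in limma (3 at an unadjusted p below 0.05, 0 in edgeR and 1 in DESeq2), the smallest p belonging to Pgd (-0.44, adjusted p = 0.0845). Of 8 glycogen genes, Ugp2 (0.62, adjusted p = 0.0339), Gbe1 (0.54, 0.0394) and Gyg (0.56, 0.0462) rose and the muscle phosphorylase Pygm fell (-1.76, 0.0295). Of 12 other sugar-handling enzymes, only Pgm1 passed, lower at -0.76 (adjusted p = 0.00818). Of 15 alternative settings, the calls of Dld, Gbe1 and Gyg held in 4 each, Ugp2 in 7, Pygm in 9 and Mpc1 in 10. That of Phgdh held in 11, and those of Shmt1, Psat1 and Pgm1 in 13 each. Dld, Gbe1, Gyg and Ugp2 all lost their calls in edgeR, under equal library totals, under quantile normalization and with a replicate block.

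Of 16 further transport genes, 2 fell and 1 rose. Nxnl1, whose rod-derived factor is known to act on glucose uptake by cones through basigin and Slc2a1, had 2794, 2288 and 3152 in the libraries labelled Zfp292-OE, against 8058 and 7785 in control (log2 fold change -1.54, SE 0.19, adjusted p = 0.000968). Its groups did not overlap, and it was lower between the groups as the rod, cone, Müller glia and astrocyte sums were. Within the libraries labelled Zfp292-OE its order was the reverse of that of the rod sums. The 2 largest of those rod sums, 368197 and 372002, lay close together, so this order decides nothing. The part of these lists in the fall of Nxnl1 was not tested. Slc2a13, a myo-inositol carrier, fell (-1.69, adjusted p = 0.0261), and Emb, embigin, a chaperone of monocarboxylate carriers, rose (0.62, 0.0431). Of 14 regulators 2 passed (14.3%, against 17.4% of all tested genes): Hnrnpa2b1 (0.74, adjusted p = 0.00584) and Hnrnpa1 (0.53, 0.0275), both higher, a pair of splicing factors known to act on Pkm. Of 12 other hypoxia target genes, Bnip3 (0.72, 0.0356) and Bnip3l (0.46, 0.0383) rose and Adm fell (-1.63, 0.0255). Of 15 alternative settings, the calls of Bnip3l held in 6, Emb and Hnrnpa1 in 7 each and Bnip3 in 8. Those of Slc2a13 held in 10, Adm in 12, and Nxnl1 and Hnrnpa2b1 in 13 each. In these 8 lists 18 of 85 tested genes passed (21.2%, beside 17.4% of all tested genes), and 0 did so without control library 1 or 2.

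Other marker lists moved as well, and their counts stand beside the 17.4% of all tested genes that passed in either direction. Bipolar cell genes fell in 8 of 10, with a median log2 fold change of -3.68 over the 10. Their sums overlapped (122831, 141386 and 209999.6 in the libraries labelled Zfp292-OE, against 188526 and 140723 in control). A sum is weighted to its most abundant genes, and this one does not follow the fall of most of the list. Cone genes fell in 4 of 8 and astrocyte genes in 3 of 5. Summed cone values were 86419, 81736 and 58022 in the libraries labelled Zfp292-OE, against 139727 and 111336 in control. Müller glia genes fell in 4 of 9, with Glul, glutamine synthetase, higher (0.63, adjusted p = 0.0120). Summed Müller glia values were 573732, 458842 and 569544 in the libraries labelled Zfp292-OE, against 811119 and 960116 in control. Muscle genes were higher in 2 of 4, the myosin Myh3 and the troponin Tnnt2, which had 640.0, 771 and 746 in the libraries labelled Zfp292-OE, against 6.54 and 3.08 in control. Of 5 endothelial genes 1 passed (20.0%, near the 17.4% of all tested genes): Cldn5, higher (3.35, adjusted p = 0.000440). Of these 5 genes 3 had positive and 2 negative log2 fold changes, the lowest at -4.94, and their sums overlapped. Of 7 microglia, 4 pigment epithelium and 3 erythroid genes 0 passed in limma (1, in microglia, at an unadjusted p below 0.05, and 0 in edgeR and DESeq2). Summed astrocyte values were 8233, 6991 and 8487 in the libraries labelled Zfp292-OE, against 14101 and 17250.3 in control. Aldoc, Eno2, Slc2a3 and Pfkp were lower between the groups, as the rod, cone, Müller glia and astrocyte sums were. Within the libraries labelled Zfp292-OE, all 4 were highest in library 3. There the rod, cone and proliferation sums were lowest, and the astrocyte sum was highest by a narrow margin. The bipolar sum, which overlapped between the groups and did not follow most of its genes, was also highest there. Müller glia sums were close in libraries 1 and 3. The part of these lists in the 4 genes was not tested.

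**Figure D5:**
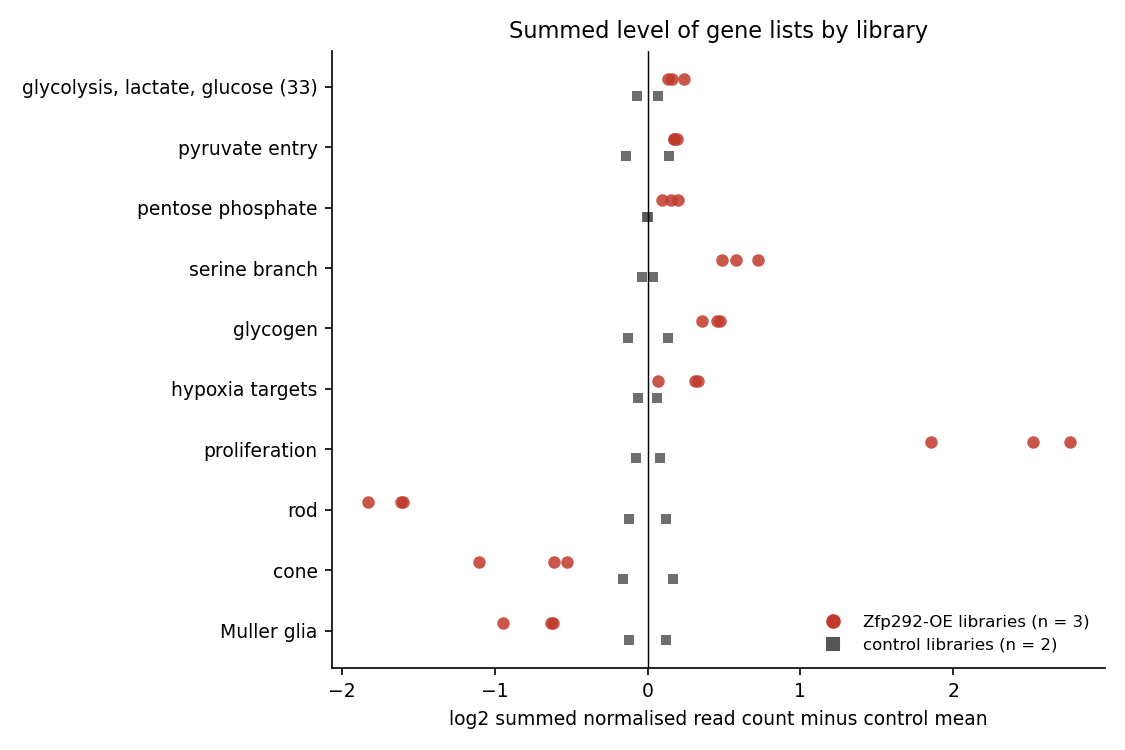
Log2 summed normalised read count of each gene list minus the control mean (x axis) in the 3 libraries labelled Zfp292-OE (circles) and the 2 control libraries (squares). The sum over the 33 glycolysis, lactate and glucose transport genes moves little, while the proliferation list lies far to the right and the rod list far to the left.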

How the data were processed

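Messenger RNA was sequenced in 5 libraries of sorted retinal cells prepared with a SMARTER mRNA-seq kit. The builds GRCm38 and mm10 are named, per the submitters' processing notes. For the aligner, counter, annotation, scaling and use of strand: not given in the sources used here. The deposited values are a signal per gene, read counts that the authors divided by 1 factor per library. In each library 100% of values were whole multiples of 1 read (1.14, 0.940 and 1.05 in the libraries labelled Zfp292-OE, 1.09 and 0.770 in control) within a tolerance of 1e-06, and whole reads were recovered from these steps. The table holds 0 columns of other samples.

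Genes with a mean of at least 10 were tested on log2(value + 1) with limma 3.58.1 (R 4.3.3, trend), as Zfp292-OE minus control and with Benjamini-Hochberg adjustment over all 16316 tested genes, and passed at an adjusted p below 0.05. Fold changes lie on the log2(value + 1) scale, which understates those of low genes. On recovered reads, edgeR 4.0.16 (quasi-likelihood) called 2621 genes and DESeq2 1.42.0 called 4147. Levels per kb used the union of GENCODE exons. Copies were found by BLAST between transcripts. Coordinates and promoters are RefSeq's, and all 33 genes matched. Scripts were tested on simulated data.

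The 33 genes, the related lists and the isoform pairs were chosen with earlier results of these data known. Named beside the 33 are Zfp292 and, of each list, up to 4 genes past the threshold with the smallest p, or 1 where none passed. Not every gene taken by this rule is reported here. Eno1b and the overlapping genes were named after their values were seen. Lists are side glycolysis, pyruvate entry, pentose phosphate, other transport, serine branch, glycogen, regulators, hypoxia targets and 11 marker lists. Ero1l, in the hypoxia list, was not matched in the table. Alternative settings were a replicate block, each library left out in turn, edgeR, DESeq2, TMM, quantile normalization, equal totals, a pseudocount of 0.5 or 10, and either no filter or a mean of at least 50. Figures were made with Python 3.11.15 and matplotlib 3.10.9.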

Additional observations from a re-analysis of the deposited data

How the results depend on the processing

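Over 493 values of the 33 genes under 15 alternatives, 0 called values changed sign, 48 lost and 16 gained a call, 414 kept direction and side of the threshold, and 15 not called changed sign. Hk1, Aldoc, Eno2, Eno3 and Pdk3 kept their calls in every alternative except leaving out a control library. With one library left out, the genes called numbered 1 to 2352 (2836 with all 5; 1 without either control and 1657 without Zfp292-OE library 1). Of the 33 genes 0 to 12 were called (12 with all 5), 0 to 4 higher and 0 to 8 lower. Genes called in the other pathway lists numbered 0 to 12 (18 with all 5). Equal library totals put the median log2 fold change over all genes at -0.27, and the split of calls at 913 higher and 1986 lower, against 1632 and 1204. There 2 of the 33 were higher and 11 lower, and Aldoa, Tpi1, Ldha, Gapdh and Pfkfb3, none of them called, had negative values. Relative to that shift the median of the 33 did not move away from that of all genes (both -0.27). Quantile normalization called 2 of the 33 higher, and 11 genes of the other pathway lists. Whether replicate numbers pair the libraries could not be told: same-numbered libraries deviated with correlations of -0.039 and -0.027, from 2 pairs. With 2 control libraries, the deviations from their mean are mirror images, so these correlations cannot decide it. A replicate block called 2498 genes and 10 of the 33, 3 higher and 7 lower. DESeq2 called 15 of the 33, edgeR 12, of which 11 were shared. The cause of these differences was not tested. Beyond the 12 calls, Pfkfb2 passed in 6 alternatives and Pfkl and Pdk2 in 3 each. Genes with few reads, such as Pdk4, are limited by counting.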
